A study of Mus musculus with 20 samples.

Results

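The constitutive proteasome subunit genes are the genes whose platform annotation symbol is Psma, Psmb, Psmc, Psmd or Psme followed by a number, without the immunoproteasome genes Psmb8, Psmb9 and Psmb10. Of 18193 genes with a single-gene probe set on the array, 39 met this rule. They comprised 20 genes of the regulatory particle (Psmc and Psmd), 16 of the core particle (Psma and Psmb) and 3 activator genes (Psme). The rule uses gene names and no measured value. The series addresses mitochondrial gene expression in ageing and profiled ventricular RNA of male C57BL/6J mice, an inbred strain, on Affymetrix MOE430 2.0 expression arrays. Of its 20 arrays, 10 came from old animals aged 25 to 28 months, and the other 10 came from young animals aged 4 to 6 months. No treatment or altered allele was named for either age.

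The proteasome is the main protease of the cytosol and nucleus and degrades proteins tagged with ubiquitin. Its core particle is a barrel of stacked rings, in which outer α subunits (Psma genes) form the gate and inner β subunits (Psmb genes) hold the proteolytic sites. The regulatory particle caps the barrel. Its ATPase ring (Psmc genes) unfolds the substrate, and its other subunits (Psmd genes) bind ubiquitin, remove it and form the lid. Heart muscle relies on this system for the turnover of sarcomere proteins, and subunit genes share transcriptional control by Nfe2l1, which acts through antioxidant response elements.

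Promoters of these genes are shown to set the regulatory and core particles beside each other at the level of sequence. The RefSeq promoter table of build GRCm38.p6 gave windows of 300 bases for 17 of the 20 tested regulatory genes, 11 of the 14 tested core genes and all 3 activator genes. Shown are the regulatory and the core member with the largest age difference among those with a window, followed by both core members with an antioxidant response element core. The 3 regulatory windows with that element core, of Psmd9, Psmd12 and Psmc6, are not shown. In each sequence capitals mark TGACNNNGC, the antioxidant response element core, and CCAAT, the motif of the factor NF-Y, on either strand.
Psmd6, chr14:14120896-14121195, minus strand: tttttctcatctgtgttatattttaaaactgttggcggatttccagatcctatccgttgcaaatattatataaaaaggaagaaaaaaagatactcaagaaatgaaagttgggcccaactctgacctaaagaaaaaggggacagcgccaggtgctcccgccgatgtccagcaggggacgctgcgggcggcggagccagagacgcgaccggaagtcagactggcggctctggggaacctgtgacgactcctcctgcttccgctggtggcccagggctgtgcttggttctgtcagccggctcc
Psmb3, chr11:97703184-97703483, plus strand: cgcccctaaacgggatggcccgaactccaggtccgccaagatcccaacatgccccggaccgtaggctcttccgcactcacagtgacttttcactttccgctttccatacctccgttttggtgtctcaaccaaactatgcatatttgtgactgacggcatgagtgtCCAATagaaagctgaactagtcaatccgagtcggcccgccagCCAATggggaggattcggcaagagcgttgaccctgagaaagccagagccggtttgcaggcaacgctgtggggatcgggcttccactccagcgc
Psmb5, chr14:54617946-54618245, minus strand: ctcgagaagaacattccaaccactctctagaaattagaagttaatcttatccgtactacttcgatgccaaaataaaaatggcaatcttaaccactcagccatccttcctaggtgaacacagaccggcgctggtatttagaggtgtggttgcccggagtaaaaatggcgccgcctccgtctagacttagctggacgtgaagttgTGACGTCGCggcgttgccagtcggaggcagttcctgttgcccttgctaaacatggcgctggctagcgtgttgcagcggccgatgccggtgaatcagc
Psmb6, chr11:70525107-70525406, plus strand: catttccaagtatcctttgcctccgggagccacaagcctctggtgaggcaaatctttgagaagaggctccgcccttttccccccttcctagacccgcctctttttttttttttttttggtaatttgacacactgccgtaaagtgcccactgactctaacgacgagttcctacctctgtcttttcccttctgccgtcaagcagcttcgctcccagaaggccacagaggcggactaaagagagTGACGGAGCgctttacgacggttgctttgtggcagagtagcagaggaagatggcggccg

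The antioxidant response element core was present in 3 of 18 regulatory windows (16.7%) and in 2 of 12 core windows (16.7%), against 12.4% of all 32851 windows in the table. The CCAAT motif was present in 5 regulatory windows (27.8%) and in 6 core windows (50%), against 37.4% of all windows. The heat shock element, searched as GAANNTTC on both strands, was found in 0 regulatory and 1 core window, against 7.86% of all windows. A match describes letters in the window and no binding was measured.

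Several arrays differed in ways that bear on all results. Of the 8 atrial muscle markers, 5 passed the filter and all 5 were higher in old hearts, with a summed signal (log2 scale) of 14.2 to 17.1 in old arrays and 13.8 to 14.5 in young ones. Clu, 1 of the 8, made up most of the young sum, at 13.7 to 14.2 by itself in young arrays. Myl7, the atrial myosin light chain, exceeded a log2 value of 10 in 7 old arrays, all except old replicates 1, 2 and 7, and reached at most 2.44 in young arrays. Old replicates 2 and 7 held lower amounts, with Myl7 at 8.27 and 6.58 and Sln at 6.97 and 5.01, so that old replicate 1 alone among the old arrays was at the level of the young ones. The atrial genes Sln and Bmp10 were also near the detection floor in every young array. An atrial index, the mean of the linear Myl7 and Sln values each relative to its highest array, served as a covariate in some fits. None of the 8 genes listed as ventricular markers passed the test, and their summed signal was 17.7 to 17.9 in both groups. The sum rests on the brightest genes, such as Myh6, at 15.84 or more in old and 15.76 or more in young arrays. Irx4, the dimmest, was at 4.86 to 6.87 in old and 6.01 to 7.05 in young arrays. Its difference was −0.58 (limma adjusted p = 0.0845), and the other genes lay between −0.21 and 0.02. Whether the ventricular content differed was not tested. Of 11 macrophage markers, 10 were higher in old hearts, with summed signals of 12.4 to 13.3 in old and 11.6 to 12.2 in young arrays. The arrays also fell into 5 sets of 4, each with 2 old and 2 young arrays, when their deviations from the group means were clustered over the tested genes other than the subunit genes. The labels name no batch, so these sets are a reading of the data. Old replicate 8 stood apart in the T cell markers Cd3d and Cd8a, at 8.38 and 7.94, against at most 3.20 and 4.69 in the other 19 arrays. In tissue RNA a change in the mix of cells and a change of RNA per cell cannot be told apart.

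Of the 39 genes, 37 were tested, that is, had a probe set above a log2 value of 4 in at least 10 arrays. Psma8, the α subunit of spermatogenic cells, was at most 2.98 in all 20 arrays. Psmb11, the β subunit of thymic cortical epithelium, was at most 2.66 in 19 arrays and at 5.33 in old replicate 8, the array with the high T cell markers. Without that array the family again had 1 called gene, Psmb7. The activator gene Psme2 has a probe set annotated to more than 1 gene and is no member.

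Few proteasome subunit genes passed the test between old and young hearts. Of the 37 tested genes, 1 fell and 0 rose in the limma fit over all genes (Benjamini-Hochberg adjusted p under 0.05), which is 2.70% of them, against 18.7% of all 9275 genes tested (11.2% higher and 7.49% lower in old). Over all genes the fit called 1037 higher and 695 lower in old, and quantile normalization turned this split to 812 higher and 1067 lower. At an unadjusted p under 0.05, 7 of the 37 passed, 18.9% of them, against 31.8% of all genes. The gene that fell was Psmb7, a catalytic subunit of the core particle with trypsin-like activity. The estimate was below 0 for 31 of the 37 genes (83.8%), against 48.7% of all genes, and their median was −0.13 on the log2 scale, against 0.01 for all genes. All these estimates come from the same 20 arrays and are not independent of one another. The 95% intervals of the 37 differences reached from −0.74 to 0.48, so no interval included a change of 1 log2 unit in either direction.

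**Figure D1:**
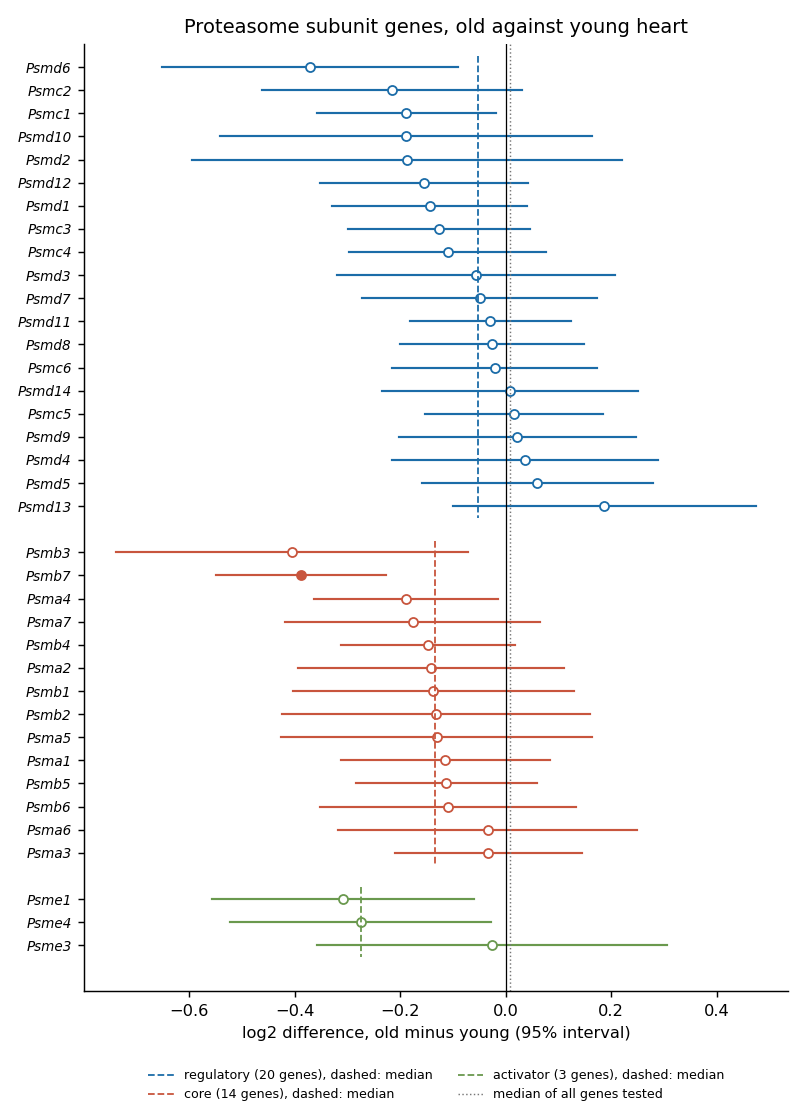
Log2 difference of each tested subunit gene, old minus young (points, with 95% intervals from limma as lines), for the regulatory particle above, the core particle in the middle and the activators below. The filled point is Psmb7, whose adjusted p is 0.00136, open points did not pass the test, dashed lines are class medians and the dotted line is the median of all genes tested (0.01).

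The regulatory particle held no called gene in the fit without covariates, against 18.7% of all genes. The array set block called 5 of its 20 genes (25%), against 36.1% of all genes. Of its 20 genes, 0 were called without the block, 14 had an estimate below 0 and 6 above it, and the median difference was −0.05, a change of −3.61% on the linear scale. With quantile normalization 18 of the 20 estimates were below 0, and with median centring 11 were, while the share below 0 over all genes was 59.2% and 43.4%. The 6 ATPase genes had a median of −0.12 and the 14 non-ATPase genes a median of −0.04. Differences ran from −0.37 for Psmd6 to 0.19 for Psmd13, both lid subunits, and 18 of the 20 lay within 0.2 of 0.

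Psmd6 had the largest regulatory difference. Its log2 values were 10.77, 11.15 and 11.82 in old hearts and 11.24, 11.63 and 12.02 in young hearts (lowest, median and highest of 10). The means were 11.29 ± 0.34 in old hearts and 11.66 ± 0.28 in young hearts (SD, n = 10 each), and 6 old arrays lay below every young array. The difference of −0.37 ± 0.14 (SE) did not pass the test (limma adjusted p = 0.0590), and it passed in 5 of 20 fits that left out 1 array, namely old replicate 1, 2 or 10 or young replicate 12 or 13. It also passed with quantile normalization (0.0471) and with the array set block (0.00235). All 6 old arrays below the young range were among the 7 with high Myl7. In the other 3 old arrays Psmd6 was at 11.47 to 11.82, inside the young range, and the difference without the 7 arrays was −0.02 (adjusted p = 0.962). That fit did not match old and young arrays by array set. Each of the 3 lay below both young arrays of its own set. The values were 11.62 and 11.82 against 12.02 and 11.89 in set 1, and 11.47 against 11.65 and 11.53 in set 4. The difference was −0.24 with the atrial index (limma adjusted p = 0.491) and −0.28 with index and sets (0.177). Its second probe set gave −0.13 (adjusted p = 0.444 over all probe sets).

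The ATPase genes Psmc2 and Psmc1 came next. Psmc2 had log2 values of 11.83, 12.17 and 12.50 in old hearts and 11.90, 12.48 and 12.66 in young hearts (lowest, median and highest of 10). Its difference was −0.22 ± 0.12 (SE, limma adjusted p = 0.219). Psmc1 had values of 9.88, 10.14 and 10.35 in old hearts and 10.03, 10.35 and 10.48 in young hearts. All 10 old arrays lay below the young median of Psmc1, yet only 3 lay below the young range, and the difference of −0.19 ± 0.08 did not pass (adjusted p = 0.112). With the array set block both Psmc2 (0.00313) and Psmc1 (0.04999) passed. Without the 7 arrays with high Myl7, Psmc2 was at −0.004 (95% interval −0.37 to 0.36) and Psmc1 at −0.01 (−0.24 to 0.22). That fit did not match old and young arrays by array set. Psmc2 was at 12.36 and 12.50 in the old arrays of set 1, against 12.63 and 12.66 in its young arrays. In set 4 old replicate 7 was at 12.22, against 12.51 and 12.45. Psmc1 was at 10.34 and 10.26 against 10.38 and 10.45 in set 1. In set 4 it was at 10.35 in old replicate 7, above the 10.03 and 10.24 of the young arrays. Fitted with the atrial index and the array sets together, Psmc2 was at −0.21 (limma adjusted p = 0.0927) and Psmc1 at −0.15 (0.428). The other ATPase genes lay between −0.13 for Psmc3 and 0.02 for Psmc5.

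Among the non-ATPase genes, the ubiquitin receptor gene Psmd4 was at 0.04 (95% interval −0.22 to 0.29) and Psmd14, which encodes the deubiquitinase of the lid, at 0.01 (−0.23 to 0.25). The scaffold genes Psmd1 and Psmd2 were at −0.14 and −0.19, with adjusted p of 0.281 and 0.550. The assembly chaperone genes Psmd10, Psmd5 and Psmd9, whose products do not stay in the finished particle, were at −0.19, 0.06 and 0.02. The lid genes Psmd3, Psmd7, Psmd8, Psmd11 and Psmd12 lay between −0.16 and −0.03, none of them past the test. Psmd13, the lid gene with the largest positive estimate, had an interval of −0.10 to 0.48 (adjusted p = 0.376).

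In the core particle all 14 tested genes had an estimate below 0, and 1 of them was called (7.14%, against 18.7% of all genes). The median difference was −0.13, a change of −8.91% on the linear scale. All 14 were also below 0 with quantile normalization and with median centring, 13 with the mean of probe sets and with the atrial index, and 11 with index and sets. Without the 7 old arrays high in Myl7, 8 of the 14 core estimates were below 0 (57.1%), beside 12 of the 20 regulatory ones (60%) and 47.2% of all genes. That fit did not match old and young arrays by array set. Old replicates 1 and 2, both outside the 7, were the old arrays of set 1. Within set 1 the core median was −0.12, with 13 of the 14 estimates below 0 (2 old and 2 young arrays). Old replicate 7, in set 4, had a median core deviation from the young mean of −0.17. The 2 young arrays of set 4 were at −0.18 and −0.10. Over all arrays the 7 α genes had a median of −0.13 and the 7 β genes a median of −0.14. The α genes lay between −0.19 and −0.03 with 0 called, and the β genes between −0.40 and −0.11 with 1 called. Differences ran from −0.40 for Psmb3 to −0.03 for Psma3 and Psma6, and 12 of the 14 lay within 0.2 of 0.

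Psmb7 was the clearest change of the family. Its log2 values were 11.33, 11.52 and 11.80 in old hearts and 11.78, 11.95 and 12.06 in young hearts (lowest, median and highest of 10). The groups overlapped by a single old array, since 9 old arrays lay below every young one. The means were 11.55 ± 0.17 in old hearts and 11.94 ± 0.10 in young hearts (SD, n = 10 each), a fall of 0.39 ± 0.08 on the log2 scale (SE, limma adjusted p = 0.00136), and every fit that left out 1 array called it (20 of 20). All 5 array sets showed a lower mean of Psmb7 in old hearts, with differences of −0.12 to −0.53. The 7 old arrays with high Myl7 lay at 11.33 to 11.58, all below the young range. The other 3 old arrays lay at 11.74 to 11.80, and 2 of them were also below the young range, which began at 11.78. Without the 7 arrays the difference was −0.17 (95% interval −0.37 to 0.04, adjusted p = 0.406), and with the atrial index as a covariate it was −0.22 (−0.40 to −0.04, adjusted p = 0.175). The fit without the 7 arrays did not match old and young arrays by array set. Each of the other 3 old arrays lay below both young arrays of its own set. Index and sets together gave −0.23 (−0.39 to −0.07, limma adjusted p = 0.0831).

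Psmb3, a non-catalytic β subunit, had the largest core estimate, and 1 array carried part of it. Its log2 values were 9.49, 10.72 and 11.16 in old hearts and 10.65, 11.03 and 11.55 in young hearts (lowest, median and highest of 10). The value of 9.49 belonged to old replicate 9, and the next old array was at 10.55. The difference was −0.40 ± 0.16 (SE, limma adjusted p = 0.0830) over all arrays and −0.27 without old replicate 9 (adjusted p = 0.108). Without old replicate 10 it was −0.46 and passed (adjusted p = 0.0475). A second Psmb3 probe set gave −0.16 (adjusted p = 0.305 over all probe sets). Psma4, an α subunit gene, had values of 9.73, 9.95 and 10.17 in old hearts and 9.88, 10.16 and 10.41 in young hearts. Its difference of −0.19 ± 0.08 did not pass the test (adjusted p = 0.123), and it passed with the array set block (0.0330). The catalytic genes Psmb5, of the chymotrypsin-like site, and Psmb6, of the caspase-like site, were both at −0.11 (95% intervals −0.28 to 0.06 and −0.35 to 0.13), and neither passed the test (adjusted p = 0.371 and 0.556). Whether Psmb7 differed from Psmb5 and Psmb6 was not tested.

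**Figure D2:**
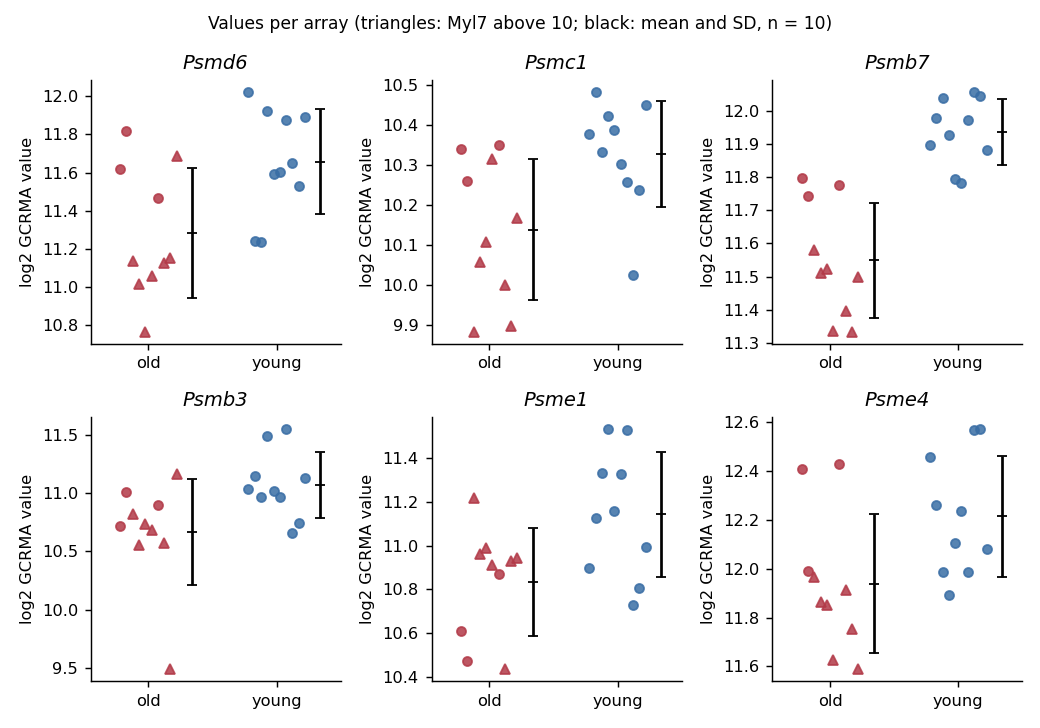
Log2 GCRMA values of Psmd6, Psmc1, Psmb7, Psmb3, Psme1 and Psme4 in each old array (left, red) and young array (right, blue), with triangles for arrays with Myl7 above 10 and black bars for the mean and SD (n = 10 each). Psmb7 is at 11.33 to 11.58 in the 7 old arrays with high Myl7 and at 11.74 to 11.80 in the other 3, and the axes do not start at 0.

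The activators open the gate of the core particle without ubiquitin. Psme1, a subunit of the interferon-inducible ring, had log2 values of 10.44, 10.92 and 11.22 in old hearts and 10.73, 11.14 and 11.53 in young hearts (lowest, median and highest of 10). The difference was −0.31 ± 0.12 (SE, limma adjusted p = 0.0766), and here the 3 old arrays without high Myl7 included 2 of the 3 that lay below the young range. Without the 7 arrays high in Myl7 the estimate was −0.49 (95% interval −0.86 to −0.12, adjusted p = 0.164), further below 0 than over all arrays. That fit did not match old and young arrays by array set. In set 1 the old arrays were at 10.61 and 10.47, against 10.90 and 10.99 in the young ones. In set 4 old replicate 7, at 10.87, lay above both young arrays (10.73 and 10.81). The Psme1 estimate was −0.38 with the atrial index (limma adjusted p = 0.199). With index and array sets it was −0.14 (0.381), closer to 0 than over all arrays. Psme1 passed when old replicate 3 or young replicate 18 was left out (adjusted p = 0.0459 and 0.0434). Psme4, a large single-chain activator of the nucleus, had values of 11.59, 11.89 and 12.43 in old hearts and 11.89, 12.17 and 12.57 in young hearts. Its difference was −0.27 ± 0.12 (adjusted p = 0.114), which passed only without old replicate 7 (0.0485) among the fits that left out 1 array. Its 3 probe sets lay at −0.27 to −0.37. The Psme4 estimate was 0.06 without the 7 arrays, again not matched by array set, and −0.11 with index and sets (limma adjusted p = 0.611). Psme3, a nuclear activator, had values of 7.64, 8.08 and 9.24 in old hearts and 7.72, 8.04 and 8.42 in young hearts. Of the old arrays, 3 lay below the young range and old replicate 9 lay above it. Its difference of −0.03 ± 0.16 had an adjusted p of 0.934, and a second probe set gave 0.45 (adjusted p = 0.157).

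Set against the regulatory particle, the core particle had the lower median, by 0.08 on the log2 scale, and in single arrays this contrast overlapped between the ages. It was 0.026 with the atrial index, 0.021 with index and sets and 0.011 without the 7 arrays high in Myl7. For each array the median deviation from the young mean was taken over each class. The regulatory median was −0.21, −0.03 and 0.02 in old arrays and −0.08, −0.02 and 0.22 in young arrays (lowest, median and highest of 10). The core median was −0.35, −0.19 and 0.06 in old arrays and −0.27, −0.11 and 0.31 in young arrays. The ranges of the ages overlapped in both classes, for the regulatory medians only between −0.08 and 0.02. The regulatory minus core difference averaged 0.09 ± 0.13 in old arrays and 0.04 ± 0.13 in young arrays (SD, n = 10 each), a gap smaller than the spread of single arrays within either group. That spread includes differences between the array sets, each of which holds both ages. The contrast was −0.14 to −0.05 in the arrays of set 1 and 0.10 to 0.29 in those of set 3. As a value over chosen members, the contrast was given no test.

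The core particle also differed between the array sets. The core medians of the young arrays of set 5 were 0.25 and 0.31, while those of the young arrays of set 2 were −0.27 and −0.11. Of the variance within age groups, a median of 63.4% lay between the sets for regulatory genes and 80.4% for core genes, against 54.1% for all genes tested. The core median was lower in old in each set, by −0.06 to −0.36, with 9 to 14 of the 14 genes below 0. The regulatory median ran from −0.17 to 0.04 over the sets. The regulatory minus core contrast was below 0 in 2 sets and above 0 in 3, with −0.05 in set 2 and 0.19 in set 5, each with 2 old and 2 young arrays.

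**Figure D3:**
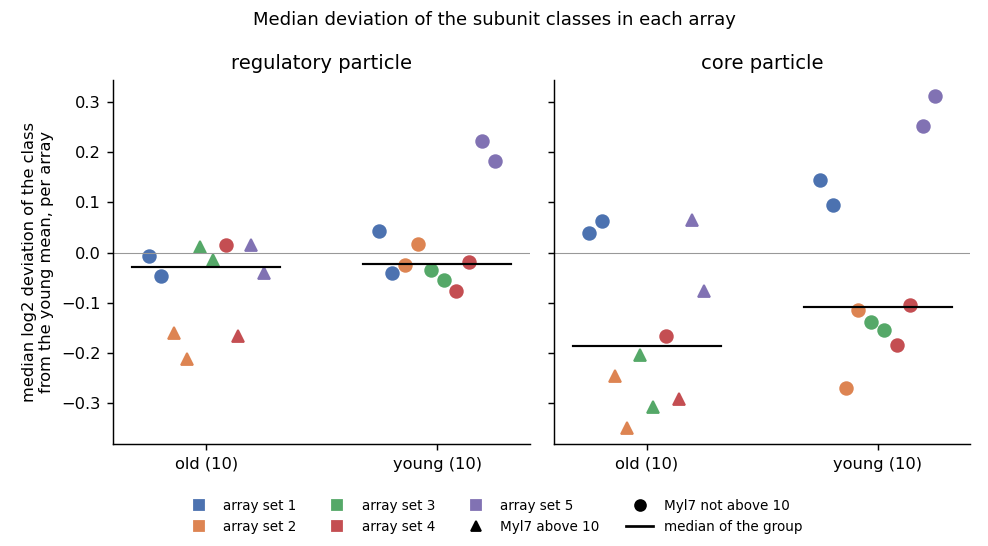
Median log2 deviation from the young mean over the 20 regulatory genes (left panel) and the 14 core genes (right panel) in each array, old left of young, coloured by array set, with triangles for arrays with Myl7 above 10 and lines at the group medians. The old and young ranges overlap in both panels, and the highest values, 0.22 for the regulatory and 0.31 for the core particle, are young arrays of set 5.

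With the array set as a block, more subunit genes passed. Of the 37, 11 fell and 0 rose, 29.7% of them, against 36.1% of all genes (16.7% lower and 19.4% higher in old). They were Psmc1, Psmc2, Psmd2, Psmd6 and Psmd10 of the regulatory particle, Psma4, Psma7, Psmb4 and Psmb7 of the core particle, and the activator genes Psme1 and Psme4. The called share was thus 25.0% of the regulatory and 28.6% of the core genes. Psma7 had an adjusted p of 0.0125, Psme1 of 0.00380 and Psme4 of 0.0161 in this fit. The sets were found on these same arrays and enter the fit as if known.

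The estimates also moved with the arrays that held atrial transcripts. With the atrial index as a covariate, 0 of 37 genes were called, against 3.74% of all genes. With the index and the sets together 0 were called, against 6.24% of all genes. Without the 7 old arrays with high Myl7, 0 of 37 were called by limma, against 2.93% of all genes, and the estimates divided into 22 below 0 and 15 above it. The class medians were then −0.01 for the regulatory and −0.02 for the core particle, against 0.02 for all genes. Only 3 old arrays, from 2 of the array sets, remained in that fit, beside young arrays of all 5 sets. In set 1, where both old arrays were among the 3, the core median was −0.12 and the regulatory median −0.03. The median of all genes in set 1 was −0.03. No young array held the atrial transcripts, so atrial RNA and age cannot be fully told apart here. The other settings called 1 or 2 members. Quantile normalization called 2, Psmb7 and Psmd6 (20.2% of all genes), and 1 was called with median centring (18%), without a filter (23.9%), with a filter at 6 (19.6%) and with the mean of a gene's probe sets (17.9%).

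**Figure D4:**
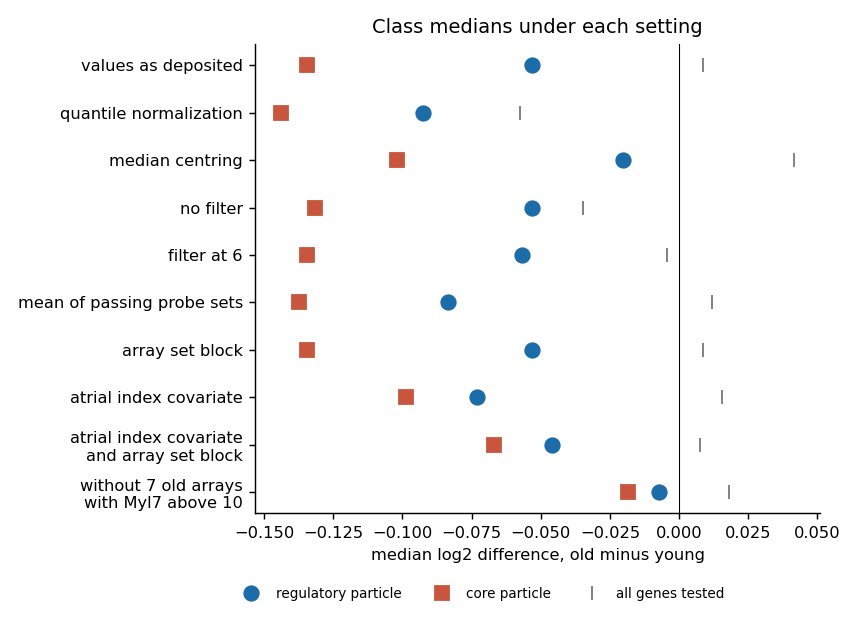
Median log2 difference, old minus young, of the regulatory genes (circles), the core genes (squares) and all genes tested (ticks) under each processing setting. Both classes lie below the ticks in each setting shown, and in the bottom setting, which drops the 7 arrays high in Myl7, the 3 medians are −0.01, −0.02 and 0.02.

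Of 42 tested genes in 6 other lists of the ubiquitin pathway, 0 were higher and 3 were lower in old hearts. The lower ones were 7.14% of the 42, near the 7.49% of all genes. Of 5 tested assembly genes 0 were called, with the chaperone genes Psmg1 and Psmg2 at −0.35 and −0.37 (limma adjusted p = 0.0696 and 0.0535) and the maturation factor gene Pomp at −0.17 (0.307). None of the 11 tested receptors and deubiquitinases, of the 7 tested ubiquitin and conjugation genes or of the 5 tested Vcp complex genes was called. The list medians were −0.17, −0.07, 0.03 and −0.07 in that order. The 3 called genes were 1 of 7 tested regulators of subunit expression and 2 of 7 tested muscle ligases.

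Fbxo32, a muscle ubiquitin ligase known as atrogin, had log2 values of 8.06, 9.34 and 9.73 in old hearts and 9.35, 10.04 and 10.40 in young hearts (lowest, median and highest of 10). It fell by 0.74 ± 0.18 on the log2 scale (SE, limma adjusted p = 0.00709). Trim63, the ligase MuRF1 of the sarcomere, averaged 11.80 ± 0.19 in old hearts and 12.13 ± 0.16 in young hearts (SD, n = 10 each) and fell by 0.33 ± 0.09 (adjusted p = 0.0119). Nfe2l2, a regulator of the antioxidant response, fell by 0.32 ± 0.08 (adjusted p = 0.0102), with means of 9.35 ± 0.17 in old and 9.66 ± 0.14 in young. Nfe2l1, the regulator of subunit genes, was at −0.18 (95% interval −0.44 to 0.09, adjusted p = 0.365), with 7.85 ± 0.30 in old and 8.03 ± 0.28 in young. Without the 7 arrays with high Myl7, the estimates were −0.38 for Fbxo32, −0.28 for Trim63 and −0.28 for Nfe2l2, and none passed (limma adjusted p = 0.354, 0.263 and 0.236). With the atrial index they were −0.68, −0.33 and −0.34 (adjusted p = 0.134, 0.135 and 0.0957). With index and sets Fbxo32 (−0.73, adjusted p = 0.0228) and Nfe2l2 (−0.36, 0.0394) passed, while Trim63 (−0.26, 0.209) did not.

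The immunoproteasome genes, which replace the catalytic β subunits in immune cells and after interferon, lay on the other side of 0. Psmb8 was at 0.46 and Psmb9 at 0.51, with adjusted p of 0.0724 and 0.0859, so neither passed, and Psmb10 was at 0.02 (adjusted p = 0.924). Psmb8 averaged 6.95 ± 0.48 in old and 6.48 ± 0.36 in young, and Psmb9 5.68 ± 0.54 in old hearts and 5.17 ± 0.44 in young hearts (SD, n = 10 each). The macrophage markers that rose with age are given above, and their part in these values was not tested.

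Most subunit genes with more than 1 passing probe set gave 1 direction. Of 17 such genes, 13 had probe sets of the same sign and 4 had opposite signs, namely Psma3, Psmc4, Psmd4 and Psme3. The probe sets of Psma3 were at −0.03 and 0.23, those of Psmc4 at −0.11 and 0.03, and those of Psmd4 at 0.04 and −0.06, none of them called. Over all 59 passing probe sets of the family 1 was called (1.69%), against 14.8% of the 15304 single-gene probe sets that passed.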

How the data were processed

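The deposited values are log2 probe set levels, made with GCRMA per the submitters' processing notes. Its version is not given in the sources used here, and the log base was read from the values, which ran from 0.98 to 16.0. Array medians were 3.07 to 3.15 in old and 3.09 to 3.20 in young arrays, and the number of arrays limits precision. Of 45101 probe sets, 64 were controls, 34945 had 1 gene in the platform annotation, 932 several and 9160 none; several or none were not used. Names were updated through a GRCm38.p6 gene table. A probe set passed above 4 in at least 10 arrays, and the passing one with the highest mean stood for its gene. Old and young were compared with limma 3.58.1 (lmFit, eBayes; R 4.3.3), without covariates and with Benjamini-Hochberg adjustment over all 9275 genes at 0.05. The fit was checked on simulated data with independent noise in each array, which held no array sets and no atrial differences between arrays. The 1-gene count of the whole array is 18193. The atrial index is the mean of linear Myl7 and Sln, each relative to its highest array. The array sets came from average linkage clustering of residual correlations. Members, lists, atrial and set alternatives were chosen with earlier results of these data known. Replicates are separate mice. Named are called members, the 3 largest differences of each particle, every activator, members with disagreeing probe sets, called related genes beyond 0.3 and Nfe2l1; other members are given in brief, and Psmb11 was singled out after its values were seen.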

Additional observations from a re-analysis of the deposited data

Results flagged for a closer look

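In 5 results 1 array lay far from the others of its group of 10, judged by the gap to its nearest neighbour relative to the whole range. Chance gives such a gap in about 1 of 20 groups, and 40 groups were examined. Psmb11 was at 5.33 in old replicate 8, where the next old array was at 2.57. It was at 2.66 in young replicate 13, where the next young array was at 2.58, both below the filter value of 4. Psmb3 was at 9.49 in old replicate 9, with the next old array at 10.55. Psme3 was at 9.24 in the same array, with the next at 8.19. Trim63, the muscle ligase, was at 11.32 in old replicate 8, with the next old array at 11.71.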

How the results depend on the processing

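No paired analysis was possible because the old and young arrays share no replicate numbers. Quantile normalization called 2 subunit genes, 1 of them regulatory. The array set block called 11, with 5 regulatory and 4 core genes, and 3344 genes in all. The atrial index called 0 subunit genes, 0 of them core, and 347 genes in all. With the index and the sets together 0 subunit genes and 579 genes in all were called, while dropping the 7 arrays of old hearts high in Myl7 called 0 subunit genes, 0 of them core, and 272 in all. Without a filter 4345 genes were called. Leaving out 1 array at a time gave 1391 to 1830 called genes, 1 to 3 called subunit genes, 1 to 2 core and 0 to 1 regulatory ones. The core median was then −0.17 to −0.10, the regulatory median −0.09 to −0.03 and the regulatory minus core difference 0.02 to 0.13. Signs turned only for genes that did not pass the test. Psme3 was at 0.0071 with median centring, 0.21 with the mean of probe sets and 0.032 with index and sets, and at −0.16 to 0.021 with 1 array left out. Psma3 was at 0.10 with the mean of probe sets, 0.043 with index and sets and 0.051 without the 7 arrays, and at −0.056 to 0.0095 with 1 array left out. Psmd4 was at −0.012 with the mean of probe sets and −0.10 with the index, and at −0.041 to 0.10 with 1 array left out. For Psme4 the index gave 0.0060, and leaving out the 7 arrays gave 0.060. The cause of these shifts was not tested. Of 144 values of single genes under other settings, 117 kept direction and side of the threshold, 10 lost the call, 7 gained it and 10 turned sign. The fit without the 7 arrays has fewer samples, and dim genes such as Psma8 were below the filter.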

Other observations

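The high Psmb11 value of old replicate 8 came with the highest values of all 4 T cell markers in that array. Cd3d was at 8.38 there and at most 3.20 in the other 19 arrays, and Cd8a was at 7.94 and at most 4.69. Cd4 was at 5.12 and at most 3.60, and Cd3e was at 3.82 and at most 2.62.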
